A study of Homo sapiens with 18 samples.

Results

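The mitosis genes described here are 32 genes followed on every array of an androgen and knockdown study in prostate cancer cells. They were a list of known mitotic genes, taken by symbol from the platform annotation, and all 32 were found among 18418 named genes. Each gene was read by 1 transcript cluster, the probes that together report a transcript, and where a gene had several the one with the highest mean was used. CENPA was read by a cluster that is annotated to SLC35F6 as well, so its value may hold signal of both genes.

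The study measured total RNA on 18 gene-level arrays of LNCaP and VCaP, established lines of androgen-responsive human prostate cancer cells, in 12 groups of line, siRNA and treatment. Cells were kept for 3 days in medium with charcoal-treated serum, which holds little steroid hormone, at 2.5% for LNCaP and 5% for VCaP. An siRNA was given 48 h before hormone, either siControl, siCTBP1-AS against an RNA antisense to the corepressor gene CTBP1, or siPSF against the RNA-binding protein encoded by SFPQ. Vehicle (ethanol, per the labels) or R1881, a synthetic androgen, followed.

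The arrays were treated as 4 sets, each with its own siControl arrays and 1 array for each siRNA and treatment. The labels do not name sets: they were inferred from the numbered array names, the siRNA marks and the doses, and every difference within a set rests on them. LNCaP set 1 held siControl and siCTBP1-AS with R1881 at 10 nM. LNCaP set 2 held siControl and an siCTBP1-AS that the labels mark as #2, with R1881 at 1 nM. LNCaP set 3 held siControl and siPSF with R1881 at 10 nM. For VCaP there was 1 set of 6 arrays, with siControl, siCTBP1-AS #2 and siPSF and R1881 at 1 nM. Between the LNCaP sets the knockdown siRNA varies with the set, and so does the dose of set 2, so these cannot be told apart. The siControl pairs of sets 1 and 3 share siRNA and the 10 nM dose, and differ only by the inferred set. VCaP is 1 set, with its own serum level and the 1 nM dose. A difference between lines thus cannot be told apart from one of set, serum or dose. For siCTBP1-AS the siRNA differs in part as well, since set 1 held the unmarked siCTBP1-AS and VCaP only #2. Line difference below means VCaP minus LNCaP as they were treated here. Whether each array had a culture of its own is not in the labels, so the p-values reflect the spread among these arrays, and that spread may be technical.

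Mitosis is entered when cyclin B and CDK1 become active together. The spindle checkpoint then holds cells before anaphase until every kinetochore is attached to the spindle, and the anaphase-promoting complex ends the stage by marking cyclins and securin for destruction. Many of these genes are switched on together late in the cell cycle, through promoters with a cell cycle homology region (CHR), bound by the MuvB complexes with B-MYB or FOXM1, and CCAAT boxes bound by NF-Y. For this reason their summed RNA is often read as a measure of how many cells are dividing. In bulk RNA, fewer dividing cells and less of each RNA per dividing cell cannot be told apart.

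Promoter sequence was set beside the list because it is what these genes are known to share. RefSeq windows on GRCh38.p14, from 250 bases before to 50 after a gene's start, were matched for 25 of the 32 genes. The core letters of the CHR, TTTGAA, or on the other strand TTCAAA, were found in 18 of the 25 (72%), against 18.17% of 27305 genes with a window. The letters CCAAT, which read on the other strand as ATTGG, were found in 22 (88%), against 39.72%, and both motifs in 16 (64%), against 7.26%. Neither motif contains the other, and a match describes the sequence without showing a bound site.

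Of the 25 genes with a window, 17 fell with R1881 in VCaP and 13 of those held the CHR core. Of the 8 that did not pass the test there, 5 held it. CCAAT was held by 14 of the 17 and by 8 of the 8, and both motifs by 11 and 5. The 250 bases before the start are shown for NCAPG and KIF11, which fell in VCaP, and for PLK1 and CDC20, which did not pass, as examples of where the letters lie. All are on the plus strand, at chr4:17810729-17810978, chr10:92592880-92593129, chr16:23678639-23678888 and chr1:43358731-43358980, and capitals mark the CHR core and the CCAAT letters on either strand.
NCAPG: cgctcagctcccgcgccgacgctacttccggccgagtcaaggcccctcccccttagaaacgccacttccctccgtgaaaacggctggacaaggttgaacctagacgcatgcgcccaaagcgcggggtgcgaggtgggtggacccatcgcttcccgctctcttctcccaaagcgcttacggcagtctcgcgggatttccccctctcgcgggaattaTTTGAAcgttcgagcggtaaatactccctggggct
KIF11: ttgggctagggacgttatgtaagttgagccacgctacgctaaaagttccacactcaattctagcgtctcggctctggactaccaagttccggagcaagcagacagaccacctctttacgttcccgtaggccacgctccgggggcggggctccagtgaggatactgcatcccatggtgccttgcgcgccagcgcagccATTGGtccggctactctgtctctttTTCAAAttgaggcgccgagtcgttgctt
PLK1: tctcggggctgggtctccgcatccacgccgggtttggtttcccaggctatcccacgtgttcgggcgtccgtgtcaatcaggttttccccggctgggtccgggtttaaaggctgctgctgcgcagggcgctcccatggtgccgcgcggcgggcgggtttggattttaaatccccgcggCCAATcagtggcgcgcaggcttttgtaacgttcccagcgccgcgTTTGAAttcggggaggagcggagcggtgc
CDC20: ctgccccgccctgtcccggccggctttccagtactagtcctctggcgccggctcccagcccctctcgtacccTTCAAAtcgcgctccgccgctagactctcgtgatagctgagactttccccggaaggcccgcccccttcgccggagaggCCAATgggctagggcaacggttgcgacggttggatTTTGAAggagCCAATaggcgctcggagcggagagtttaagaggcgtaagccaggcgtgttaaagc
The CHR core starts at position -35 from the start in NCAPG, -29 in PLK1 and, on the other strand, -28 in KIF11. CDC20 has it at -65 and, on the other strand, at -178. CCAAT lies at -73 in PLK1, at -55 and -100 in CDC20 and, on the other strand, at -53 in KIF11. The window of NCAPG, 1 of 3 genes among the 17 without CCAAT, held no such letters.

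Depth has no direct counterpart on arrays, and the number of arrays limits the precision. Correlations between arrays of the same set ran from 0.980 to 0.992 over all 33297 transcript clusters, and no pair was identical. Set medians over these clusters were 6.70, 5.74, 6.8 and 6.25 for sets 1, 2, 3 and VCaP, so levels of the mitosis genes are compared within a set only. Marker levels are given below as ranges per line, without a test. KLK3, the gene of prostate-specific antigen, rose by 2.09 with R1881 in VCaP (limma adjusted p = 0.000443) and was 0.88 to 2.60 higher in each of the 6 LNCaP pairs. SFPQ, the target of siPSF, fell by 0.79 in LNCaP (adjusted p = 0.0154) and by 1.44 in VCaP (adjusted p = 0.000145). CTBP1-AS itself was not analysed here. The 5 luminal markers measured averaged 10.14 to 12.46 per LNCaP array and 10.97 to 12.27 per VCaP array, and ERG, which VCaP overexpresses through a gene fusion, read 9.01 to 12.11 there and 3.91 to 5.03 in LNCaP. The measured basal, fibroblast, leukocyte and endothelial markers had array means of at most 6.52, 6.32, 4.35 and 5.64. Single markers read higher in LNCaP, up to 8.10 for the fibroblast marker COL1A1 and 7.06 for the basal marker KRT14.

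The mitosis genes ranked higher among all genes in VCaP than on most LNCaP arrays. Their median percentile among all named genes of an array, which serves to compare arrays and not genes, was 61.0 to 69.3 on the arrays of LNCaP sets 1 and 2, 64.0 to 79.8 in set 3 and 78.9 to 90.1 in VCaP. The highest LNCaP array was the siControl vehicle array of set 3, at 79.8, and the siControl vehicle arrays of sets 1 and 2 stood at 62.5 and 66.4. In VCaP the 3 vehicle arrays, at 87.5, 89.7 and 90.1, were each above the 3 R1881 arrays, at 78.9, 82.0 and 86.2.

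**Figure D1:**
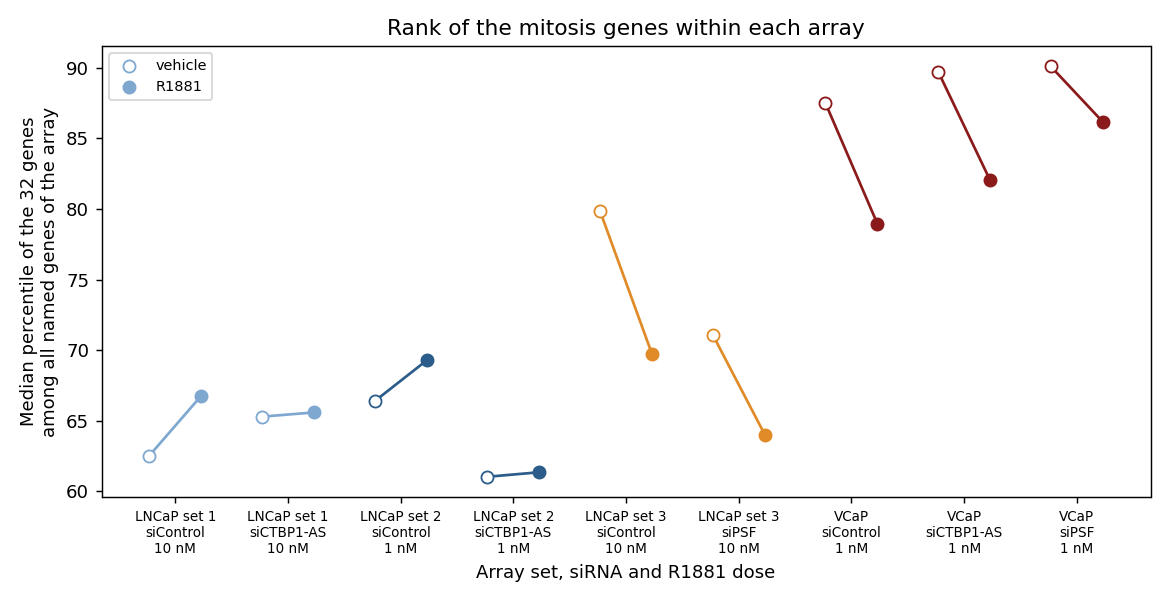
Median percentile (vertical axis, percent) of the 32 mitosis genes among all named genes of each array, by set, siRNA and R1881 dose; open points are vehicle, filled points R1881, and a line joins the 2 arrays of a pair. Every pair of LNCaP set 3 and VCaP goes down with R1881, and each pair of sets 1 and 2 goes up by 0.3 to 4.3 points.

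The first comparison asked what R1881 did to these genes in VCaP, with 3 pairs of arrays that share an siRNA. The mitosis genes were lower with R1881: 20 of 32 fell and 0 rose, where limma called 23.5% of all 13813 genes tested in either direction and 12.4% lower. The median difference of the 32 was -0.64 on the log2 scale (range -1.26 to -0.17), against 0.01 over all genes tested. All 32 were below vehicle in each of the 3 pairs, as were 29.2% of all genes. For 22 of the 32 the 3 R1881 arrays lay wholly below the 3 vehicle arrays, against 17.2% of all genes.

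Checkpoint genes held the largest decrease. MAD2L1, which encodes the Mad2 protein that restrains anaphase, fell 2.40-fold. MAD2L1 read 9.80, 9.33 and 9.71 in vehicle against 8.31, 8.10 and 8.64 in R1881, in the order siControl, siCTBP1-AS and siPSF, the order used for VCaP throughout. The groups did not overlap, and the difference was -1.26 (SE 0.21, limma adjusted p = 0.000997). TTK, the kinase that recruits checkpoint proteins to kinetochores, fell by 1.05 (SE 0.17, limma adjusted p = 0.000922). BUB1B, which encodes the checkpoint protein BubR1, fell by 0.98 (SE 0.20) and BUB1, its partner kinase, by 0.63 (SE 0.15). The other members of this group act at mitotic exit and did not pass: CDC20, the activator of the anaphase-promoting complex, had a difference of -0.17, UBE2C, its ubiquitin-conjugating enzyme, of -0.30 and PTTG1, which encodes securin, of -0.32. PTTG1 read 8.68, 8.73 and 8.98 in vehicle against 8.18, 8.69 and 8.57 in R1881, so that its groups overlapped by the siCTBP1-AS array in R1881. In all, 4 of 7 checkpoint and exit genes fell.

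Among genes of mitotic entry 3 of 7 fell. CDK1, the kinase that drives entry, fell 1.84-fold. CDK1 read 10.14, 10.46 and 10.50 in vehicle against 9.08, 9.40 and 9.97 in R1881. All R1881 arrays were below all vehicle arrays, with a difference of -0.88 (SE 0.21, limma adjusted p = 0.00874). CCNA2 and CCNB2, the genes of cyclins A2 and B2, fell by 0.78 (SE 0.17) and 0.64 (SE 0.14). CCNB1, the gene of cyclin B1 and the main partner of CDK1, did not pass. CCNB1 read 9.83, 10.19 and 10.26 in vehicle against 9.52, 9.97 and 10.12 in R1881, for a difference of -0.22 (SE 0.13, limma adjusted p = 0.257). The lowest CCNB1 vehicle array, with siControl, lay below both R1881 arrays with a knockdown.

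The other 3 entry genes, a pair of kinases and a transcription factor, did not pass either. PLK1 read 10.84, 11.09 and 11.24 in vehicle against 10.66, 10.95 and 11.05 in R1881. PLK1, a kinase of entry and spindle assembly, had the smallest difference of the 32, at -0.17 (SE 0.13, limma adjusted p = 0.389), although each of its 3 pairs was lower. AURKA read 9.62, 10.16 and 10.02 in vehicle against 9.24, 9.75 and 9.87 in R1881. AURKA, the centrosomal Aurora kinase, had a difference of -0.31 (SE 0.15, limma adjusted p = 0.171), and its groups overlapped. FOXM1, the transcription factor of the late cell cycle, was lower by a similar amount in the 3 pairs. FOXM1 read 10.47, 10.64 and 10.96 in vehicle against 10.05, 10.20 and 10.53 in R1881. Its difference was -0.43 (SE 0.18, limma adjusted p = 0.102).

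Of the spindle genes 6 of 8 fell. KIF11, the motor that pushes spindle poles apart, fell by 1.03 (SE 0.20, limma adjusted p = 0.00333), and NUSAP1, which bundles spindle microtubules, by 0.87 (SE 0.17, limma adjusted p = 0.00344). HMMR, a spindle pole protein, fell by 0.84 and KIF23, a motor of the central spindle in cytokinesis, by 0.79. ASPM, a spindle pole protein, and TPX2, the activator of Aurora A, fell by 0.76 and 0.54. DLGAP5, which stabilises kinetochore fibres, lay just outside the threshold at -0.56 (limma adjusted p = 0.0507), and KIF20A, another motor of cytokinesis, stood at -0.41 (limma adjusted p = 0.209).

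Kinetochore and passenger genes fell in part. CENPE, the kinetochore motor that moves chromosomes to the spindle equator, had no overlap between treatments. CENPE read 8.43, 8.58 and 8.59 in vehicle against 7.53, 7.59 and 8.17 in R1881, a difference of -0.77 (SE 0.16, limma adjusted p = 0.00472). CENPF, a protein of the outer kinetochore, fell by 0.67, and CENPA, the centromeric histone, had a difference of -0.19 without passing. Of the chromosomal passenger complex, which corrects faulty attachments, CDCA8 (borealin) fell by 0.68 and AURKB, its kinase, by 0.64. BIRC5, which encodes survivin of the same complex, did not pass. BIRC5 read 8.33, 8.34 and 8.50 in vehicle against 7.99, 8.28 and 8.25 in R1881, a difference of -0.22 (SE 0.17, limma adjusted p = 0.415).

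The remaining 4 genes concern chromosome structure and proliferation, and 3 of them fell. PBK, a mitotic kinase, fell by 1.1 (SE 0.20, limma adjusted p = 0.00181), and NCAPG, a condensin subunit, by 1.07 (SE 0.19, limma adjusted p = 0.0019). TOP2A, the topoisomerase that untangles sister chromatids, was lower on every R1881 array. TOP2A read 11.73, 11.89 and 11.80 in vehicle against 11.06, 11.25 and 11.52 in R1881, a difference of -0.53 (SE 0.17, limma adjusted p = 0.0371). MKI67, the gene of the Ki-67 proliferation antigen, did not pass. MKI67 read 10.05, 10.21 and 10.39 in vehicle against 9.38, 9.60 and 10.16 in R1881, and the R1881 array with siPSF lay above the siControl vehicle array. Its difference was -0.50 (SE 0.24, limma adjusted p = 0.149).

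Pair medians were below 0 with every siRNA, at -0.73 with siControl, -0.70 with siCTBP1-AS and -0.44 with siPSF. Without either VCaP siControl array the count of genes that fell was 8 (at most 4.68% of all genes lower), and without either VCaP siCTBP1-AS array it was 13 (at most 9.06%), while the median stayed between -0.70 and -0.58 over all arrays and sets left out in turn. CDK1 then no longer passed in each of these 4 fits. BUB1B no longer passed in 2 of the fits that left out an array or set. KIF11, MAD2L1, NCAPG, NUSAP1, PBK and TTK passed in all of them.

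**Figure D2:**
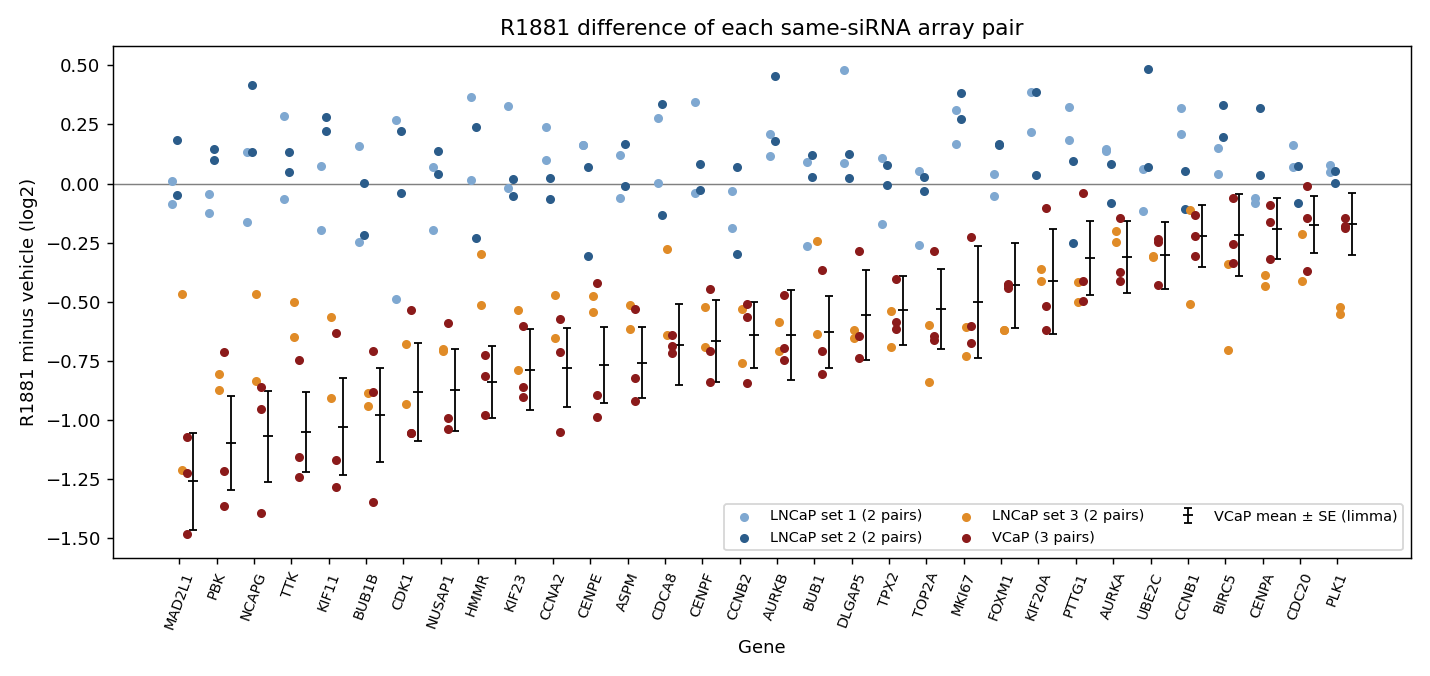
R1881 minus vehicle (vertical axis, log2) for each of the 32 genes, 1 point for each pair of arrays with the same siRNA, coloured by set; black marks give the VCaP mean and its standard error from limma. All VCaP and LNCaP set 3 points are below 0, while the points of sets 1 and 2 lie on both sides of it.

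Other cell cycle genes in VCaP were counted by lists that hold none of the 32. Of 18 other kinetochore genes 15 fell (median -0.97), led by CENPK at -1.53 and CENPH at -1.45, both of the inner kinetochore. All 9 genes of chromatid structure and cohesion fell (median -0.67), with CDCA5, the gene of sororin, at -1.31 and SMC2, a condensin ATPase, at -1.0. Of 17 other spindle and cytokinesis genes 10 fell, KIF15 at -1.26 and KIFC1 at -0.74 the furthest. Of 13 other entry genes 7 fell, led by MASTL, the Greatwall kinase, at -1.32 and MELK at -1.04.

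DNA replication genes, which are used a stage earlier, had larger differences than the mitosis genes. Of 27, 26 fell and 0 rose (median -1.45), led by DTL at -2.59 and MCM4, a subunit of the replicative helicase, at -2.02. The anaphase-promoting complex list, whose genes are mostly expressed throughout the cycle, had 1 higher (ANAPC2 at 0.30) and 2 lower of 14, FBXO5 at -1.03 and ANAPC4 at -0.74. Of 15 genes of arrest and the first gap phase 1 rose, CDKN1A, which encodes the CDK inhibitor p21, by 0.70 (limma adjusted p = 0.0264), and 3 fell, led by RBL1 at -1.19 and LIN9 at -0.86.

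In LNCaP the same question was asked over 6 pairs of arrays. Here 0 of 32 mitosis genes passed, where limma called 13.1% of all genes, and 3 had an unadjusted p under 0.05, as did 26.5% of all genes. The median difference was -0.14, and 0.0719 without set 3. Single genes ran from BUB1B at -0.36 (SE 0.14, limma adjusted p = 0.125) to KIF20A at 0.04 (SE 0.16). With the 6 siControl arrays alone, 3 against 3 without a block, 0 passed and 0 had an unadjusted p under 0.05, against 0.253% and 2.33% of all genes. The median was -0.11, and 0.13 without the siControl pair of set 3. With the replicate number as a block the counts were again 0 and 0, against 5.31% and 19.9% of all genes.

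The LNCaP mean joined sets that differed. Set 3 had pair medians of -0.65 with siControl and -0.51 with siPSF, and all 32 genes were below vehicle in both of its pairs, as were 41.6% of all genes. Sets 1 and 2 had pair medians of 0.13 and -0.03, and of 0.13 and 0.05, with siControl and siCTBP1-AS in that order, and in all 4 of these pairs 0 genes were below vehicle and 6 above it (14.7% and 15.8% of all genes). A fit with an R1881 term for each set, added after the values were seen, called 19 of 32 lower in set 3 (6.9% of all genes called, 3% lower) and 0 in sets 1 and 2 (1.59% and 3.13%), with 0 and 1 at an unadjusted p under 0.05 (9.59% and 17.8% of all genes).

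In set 3, BUB1B fell by 0.91 (SE 0.16, limma adjusted p = 0.00926), PBK by 0.84 (SE 0.14) and PLK1, which did not pass in VCaP, by 0.54 (SE 0.10, limma adjusted p = 0.00954). The difference between set 3 and the mean of sets 1 and 2 passed for 0 of the 32 and for 0.0% of all genes, with 29 of 32 at an unadjusted p under 0.05 (7.07% of all genes) and a smallest limma adjusted p of 0.12. Against set 1, which had the same 10 nM dose, it passed for 0 of the 32 and 0.0% of all genes, with 27 of 32 at an unadjusted p under 0.05 (6.76% of all genes). KLK3 was 1.22 higher with R1881 in the siControl pair of set 1, 2.60 in set 2 and 0.88 in set 3.

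Array values show the contrast gene by gene. MKI67 in set 3 read 9.52 without and 8.79 with R1881 under siControl, and 8.89 and 8.28 under siPSF. In set 1 MKI67 read 8.35 and 8.66 under siControl, and 8.12 and 8.29 under siCTBP1-AS, and in set 2 it read 7.79 and 8.17 under siControl, and 6.82 and 7.09 under siCTBP1-AS. R1881 arrays were thus the lower of each pair in set 3 and the higher in sets 1 and 2. CDK1 in set 3 read 10.50 without and 9.57 with R1881 under siControl, and 9.79 and 9.11 under siPSF. In set 1 CDK1 read 9.09 and 9.36 under siControl, and 9.55 and 9.06 under siCTBP1-AS, and in set 2 it read 9.46 and 9.68 under siControl, and 9.65 and 9.61 under siCTBP1-AS. For CDK1 both set 3 pairs went down and the pairs of sets 1 and 2 went either way. TOP2A in set 3 read 10.19 without and 9.34 with R1881 under siControl, and 9.70 and 9.11 under siPSF. In set 1 TOP2A read 8.73 and 8.79 under siControl, and 8.70 and 8.44 under siCTBP1-AS, and in set 2 it read 8.49 and 8.51 under siControl, and 8.03 and 7.99 under siCTBP1-AS. Its siControl pairs in sets 1 and 2 differed by 0.05 and 0.03.

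Among the cyclin and kinase genes, CCNB1 in set 3 read 9.67 without and 9.16 with R1881 under siControl, and 8.93 and 8.82 under siPSF. In set 1 CCNB1 read 7.95 and 8.27 under siControl, and 8.14 and 8.36 under siCTBP1-AS, and in set 2 it read 8.41 and 8.30 under siControl, and 8.38 and 8.44 under siCTBP1-AS. The siPSF pair of set 3 differed by -0.11 for CCNB1, the smallest of the 32 in that pair. PLK1 in set 3 read 11.23 without and 10.68 with R1881 under siControl, and 10.60 and 10.08 under siPSF. In set 1 PLK1 read 9.63 and 9.71 under siControl, and 9.70 and 9.75 under siCTBP1-AS, and in set 2 it read 9.20 and 9.20 under siControl, and 9.20 and 9.25 under siCTBP1-AS. PLK1 was lower with R1881 in both set 3 pairs, and each of the other 4 pairs was higher by at most 0.08. AURKA in set 3 read 9.30 without and 9.11 with R1881 under siControl, and 8.78 and 8.53 under siPSF. In set 1 AURKA read 7.45 and 7.59 under siControl, and 7.79 and 7.94 under siCTBP1-AS, and in set 2 it read 6.98 and 7.06 under siControl, and 6.69 and 6.61 under siCTBP1-AS. AURKA had the smallest set 3 difference of the 10 genes given by array.

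FOXM1 in set 3 read 9.58 without and 8.96 with R1881 under siControl, and 9.06 and 8.44 under siPSF. In set 1 FOXM1 read 8.39 and 8.43 under siControl, and 8.29 and 8.24 under siCTBP1-AS, and in set 2 it read 7.90 and 8.07 under siControl, and 7.20 and 7.36 under siCTBP1-AS. With siCTBP1-AS FOXM1 was below siControl in both sets, at -0.10 and -0.20 in set 1 and -0.71 and -0.71 in set 2. BIRC5 in set 3 read 8.91 without and 8.21 with R1881 under siControl, and 8.22 and 7.88 under siPSF. In set 1 BIRC5 read 7.49 and 7.53 under siControl, and 7.41 and 7.56 under siCTBP1-AS, and in set 2 it read 7.09 and 7.42 under siControl, and 6.75 and 6.95 under siCTBP1-AS. All 4 BIRC5 pairs of sets 1 and 2 were higher with R1881. CENPE in set 3 read 8.00 without and 7.45 with R1881 under siControl, and 7.30 and 6.83 under siPSF. In set 1 CENPE read 7.33 and 7.49 under siControl, and 7.20 and 7.37 under siCTBP1-AS, and in set 2 it read 6.10 and 5.80 under siControl, and 5.50 and 5.57 under siCTBP1-AS. For CENPE the siControl pair of set 2 was lower with R1881 and the siCTBP1-AS pair higher. PTTG1 in set 3 read 9.15 without and 8.73 with R1881 under siControl, and 8.68 and 8.17 under siPSF. In set 1 PTTG1 read 7.43 and 7.75 under siControl, and 7.72 and 7.90 under siCTBP1-AS, and in set 2 it read 8.12 and 7.87 under siControl, and 7.98 and 8.07 under siCTBP1-AS. Only the siControl pair of set 2 was lower for PTTG1 in sets 1 and 2.

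The test of the line difference itself called fewer genes than the VCaP test. R1881 lowered 4 of 32 genes more in VCaP than in LNCaP, where 7.54% of all genes differed and 4.31% were lower in this sense, and the median difference between lines was -0.50. These were MAD2L1 at -0.99 (SE 0.25, limma adjusted p = 0.0346), NCAPG at -0.94 (adjusted p = 0.0335), TTK at -0.93 (adjusted p = 0.0186) and HMMR at -0.77 (adjusted p = 0.0274). PLK1 stood at the other end with -0.02. The count rested on which sets were used: 18 without set 3 (4.28% of all genes lower), 1 without set 1 or without set 2 (3.87% and 5.03%), 13 with an R1881 term for each set (7.68% of all genes called, 4.5% lower), and 0 when any 1 of the 4 VCaP siControl and siCTBP1-AS arrays was left out (1.09% to 2.45% of all genes lower). Against set 3 alone, VCaP differed for 0 of the 32 (1.67% of all genes), with 2 at an unadjusted p under 0.05 (14% of all genes), TTK at -0.47 and PLK1 at 0.36.

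In LNCaP the other lists held few calls for R1881. CENPN, a reader of centromeric nucleosomes, rose by 2.80 (SE 0.17, limma adjusted p = 1.28e-06), the only 1 of 18 other kinetochore genes to pass, and its 6 pairs ranged from 2.35 to 3.47. In VCaP CENPN was 0.49 to 0.80 higher in the 3 pairs, a mean of 0.61 that did not pass. WEE1, the kinase that holds CDK1 inactive, fell by 0.52 as the only 1 of 13 entry genes, and CCNE2 fell by 0.79 as the only 1 of 27 replication genes. In the arrest list LIN52 rose by 0.33 and GADD45A fell by 0.34, while the spindle, chromatid and anaphase-promoting complex lists had 0 genes called, with 1, 3 and 4 at an unadjusted p under 0.05.

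Knockdown of PSF was compared with siControl at matched treatment in set 3 and in VCaP. In LNCaP 0 of 32 mitosis genes passed, where limma called 1.03% of all genes, and 23 had an unadjusted p under 0.05, as did 14.1% of all genes. All 32 were below siControl both in vehicle (median -0.63) and in R1881 (median -0.49), as were 35.5% of all genes. In VCaP 0 passed, where 2.71% of all genes were called, and 19 had an unadjusted p under 0.05, as did 14.8% of all genes. There 30 of 32 were above siControl in both treatments (medians 0.31 and 0.60), as were 28% of all genes.

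**Figure D3:**
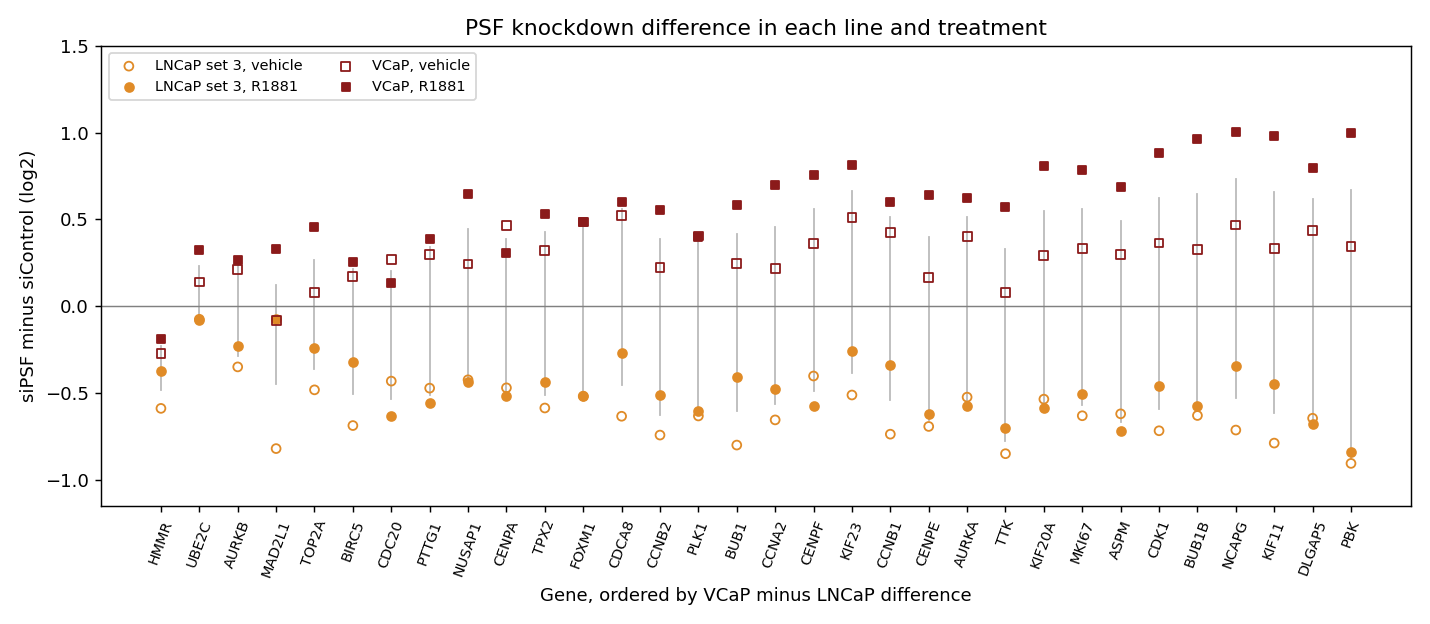
siPSF minus siControl (vertical axis, log2) of each gene in LNCaP set 3 (circles) and VCaP (squares), open in vehicle and filled in R1881; grey lines join the means of the lines. All LNCaP points are below 0, and 30 of the 32 genes have both VCaP points above 0.

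Thus 30 genes were below siControl in both LNCaP differences and above it in both VCaP differences, as were 8.91% of all genes. The line difference in the siPSF response was above 0 for all 32 genes, with a median of 1.02, and 0 passed (smallest limma adjusted p = 0.0774), where 0.282% of all genes were called. An unadjusted p under 0.05 was found for 27, and for 12.1% of all genes. PBK had the largest line difference, at 1.54 (SE 0.34, limma adjusted p = 0.0802), and HMMR the smallest, at 0.25 (SE 0.26). With an R1881 term for each set, added after the values were seen, 13 of 32 passed, each higher in VCaP (0.811% of all genes called, 0.514% higher), among them PBK, PLK1, DLGAP5 and ASPM. With sets 3 and VCaP alone, which leave 3 residual degrees of freedom, 25 passed, each higher in VCaP (3.19% of all genes called, 1.88% higher).

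Values of single genes follow, none of which passed in either line. For PBK in set 3, siPSF minus siControl was -0.91 in vehicle and -0.84 in R1881, a mean of -0.87 (SE 0.24, limma adjusted p = 0.11). In VCaP the same differences were 0.34 and 1.00, a mean of 0.67 (SE 0.24). NCAPG had the highest VCaP mean, 0.73 (SE 0.24, limma adjusted p = 0.146), beside -0.53 in LNCaP. TTK stood at -0.78 in LNCaP and 0.33 in VCaP. UBE2C was nearest to 0 in LNCaP, at -0.08 (SE 0.17). HMMR, which binds microtubules at spindle poles, was the 1 gene below siControl in both lines, at -0.48 and -0.23, and MAD2L1 was on both sides of 0 in VCaP.

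The entry genes lay within a narrow range. Their LNCaP differences lay between -0.63 and -0.52 and their VCaP differences between 0.39 and 0.62, and all 7 had an unadjusted p under 0.05 in each line and for the line difference. Spindle genes ranged more widely, from -0.67 to -0.39 in LNCaP and, with HMMR at the low end, from -0.23 to 0.66 in VCaP. The passenger genes had the lowest group median for the line difference, 0.72, and chromosome and proliferation genes the highest, 1.20.

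The siPSF comparison in LNCaP and the R1881 comparison in set 3 share the siControl vehicle array that stood highest among LNCaP arrays. The siPSF difference in R1881 (median -0.49) and the R1881 difference with siPSF (median -0.51) do not use that array. Both use the siPSF array in R1881 instead, which had the lowest median percentile of set 3, at 64.0, so they are not independent of each other. Leaving out 1 of the 4 arrays of set 3 in turn gave LNCaP medians for siPSF between -0.84 and -0.25, the smallest without the siControl vehicle array. Such a fit no longer rests on matched differences alone. It draws on the R1881 term shared by all LNCaP sets, and thus on sets 1 and 2. The matched differences had medians of -0.63 in vehicle and -0.49 in R1881. In VCaP, siPSF and siCTBP1-AS share their siControl arrays, so their values are set side by side only.

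Among the other lists siPSF raised KIF2C by 0.81 and RACGAP1 by 0.77 in VCaP, 2 of 17 spindle and cytokinesis genes. It raised CCNF, the gene of cyclin F, by 0.65 (1 of 13 entry genes) and CDC23 by 0.57 (1 of 14 anaphase-promoting complex genes), and called 0 of the kinetochore, chromatid, replication and arrest genes there, with 9, 7, 2 and 4 at an unadjusted p under 0.05. In LNCaP siPSF called 0 genes in all 7 lists in the main fit. There 31 of 113 had an unadjusted p under 0.05, as did 14.1% of all genes. With an R1881 term for each set, it called 1 kinetochore, 1 spindle and 2 entry genes lower in LNCaP (0.782% of all genes). In VCaP that fit called 3 kinetochore, 7 spindle, 2 chromatid and 2 entry genes higher (0.811%). CDKN3, a phosphatase gene of the late cycle, had a line difference of 1.33 (limma adjusted p = 0.0487). It was the only 1 of these lists to pass in the main fit. With the added terms 6 kinetochore, 8 spindle, 4 chromatid, 5 entry and 1 replication genes passed (0.514% higher).

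With siCTBP1-AS in LNCaP 0 of 32 mitosis genes passed, where limma called 7.41% of all genes, and 6 had an unadjusted p under 0.05, as did 24.1% of all genes. The median was -0.14, and it was 0.06 in vehicle and -0.12 in R1881 in set 1 and -0.20 and -0.27 in set 2. MKI67 was furthest from 0, at -0.66 (SE 0.20, limma adjusted p = 0.0682), with -0.23 and -0.37 in set 1 and -0.97 and -1.08 in set 2. PTTG1 stood at the other end with 0.12 (SE 0.14). With an R1881 term for each set, where 6.6% of all genes were called and 3.73% lower, MKI67, FOXM1 and CENPF fell (limma adjusted p = 0.0267, 0.0443 and 0.0495). Without set 1 the MKI67 difference was -1.03 and 3 genes passed (11.1% of all genes lower), without set 2 it was -0.30, without set 3 1 gene passed (2.28%), and without 2 of the single set 1 arrays (siControl in vehicle, siCTBP1-AS in R1881) 2 and 1 passed (4.37% and 5%).

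In VCaP 0 of 32 genes passed with siCTBP1-AS, where 0.565% of all genes were called, and 3 had an unadjusted p under 0.05, as did 11.2% of all genes. There 28 were above siControl in both treatments, as were 24.7% of all genes. In LNCaP 12 genes were below siControl in all 4 differences (14.3% of all genes), and 9 of these were above it in both VCaP differences (2.81% of all genes). The median in VCaP was 0.26, from MAD2L1 at -0.34 (SE 0.25) to AURKA at 0.52 (SE 0.19, limma adjusted p = 0.306). The line difference passed for 0, where 0.297% of all genes were called, and 6 had an unadjusted p under 0.05, as did 13.1% of all genes. Its median was 0.37, and it ran from MAD2L1 at -0.19 to MKI67 at 0.86 (SE 0.35, limma adjusted p = 0.331). The LNCaP side joined the unmarked siCTBP1-AS of set 1 with the #2 of set 2, while VCaP had #2 only. Leaving out arrays or sets in turn gave medians of 0.26 to 0.46, and 0.49 to 1.22 for MKI67.

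In LNCaP siCTBP1-AS lowered MYBL2, which encodes B-MYB, by 0.94 and raised CDC25B, an activator of CDK1, by 0.37, 2 of 13 entry genes. CDC6, a replication licensing factor, fell by 0.93 (1 of 27), CDC23 rose by 0.41 (1 of 14) and CDKN2B, a CDK inhibitor, rose by 0.56 (1 of 15). The kinetochore, spindle and chromatid lists had 0 genes called, with 6, 5 and 1 at an unadjusted p under 0.05. In VCaP siCTBP1-AS called 0 genes in all 7 lists, with 10 of 113 at an unadjusted p under 0.05 (11.2% of all genes).

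Set against each other in VCaP, siPSF and siCTBP1-AS differed for 0 of 32 genes (median 0.26), where 1.88% of all genes were called, and 3 had an unadjusted p under 0.05, as did 13.2% of all genes. PBK was higher with siPSF by 0.64 (SE 0.24, limma adjusted p = 0.25) without passing, and HMMR stood at -0.48 (SE 0.19). The last question was whether a knockdown altered the R1881 response, tested by product terms shared by the lines. These passed for 0 of 32 genes and 0.0% of all genes with either siRNA, and 0 of the 32 had an unadjusted p under 0.05 (4.63% of all genes with siCTBP1-AS and 2.87% with siPSF). The medians were 0.12 for siCTBP1-AS (HMMR at -0.16 to PTTG1 at 0.31) and -0.09 for siPSF (AURKB at -0.31 to BUB1 at 0.13). Since all LNCaP sets shared 1 R1881 term, the products also take in the contrast of set 3 with sets 1 and 2. They cannot decide whether a knockdown altered the response. Within sets, R1881 pair medians with siPSF and siControl were -0.51 and -0.65 in set 3, and -0.44 and -0.73 in VCaP. With siCTBP1-AS and siControl they were -0.03 and 0.13 in set 1, 0.05 and 0.13 in set 2, and -0.70 and -0.73 in VCaP.

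**Figure D4:**
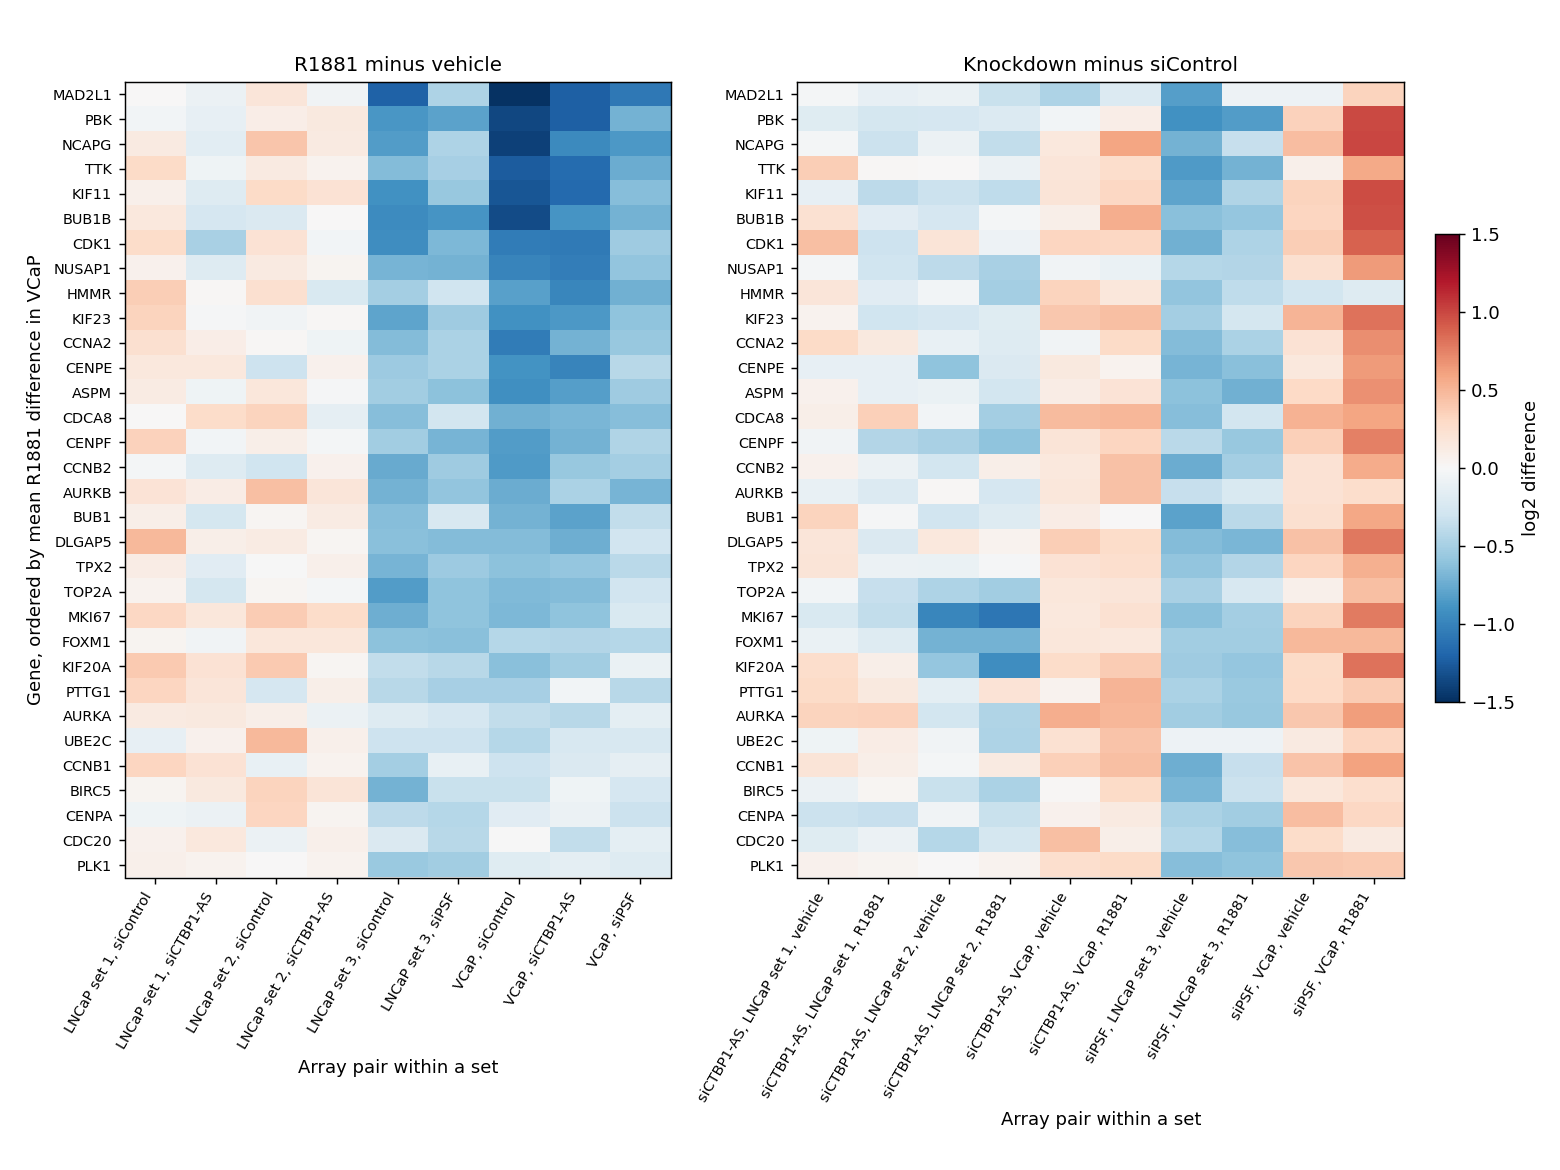
Log2 differences of the 32 genes (rows, ordered by their mean R1881 difference in VCaP) for each pair of arrays within a set (columns); R1881 minus vehicle on the left and knockdown minus siControl on the right, with blue below 0 and red above. The R1881 columns of set 3 and VCaP are blue throughout, and the siPSF columns are blue in LNCaP and red in VCaP except for HMMR and, in vehicle, MAD2L1.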

How the data were processed

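Gene expression was measured in total RNA on 18 one-colour HuGene 1.0 ST arrays. RMA in Affymetrix Expression Console 1.1.1 gave the log2 values that the authors deposited for each transcript cluster, per the submitters' processing notes. The grouping of arrays for RMA, the length of R1881 treatment and the meaning of the #2 mark are not given in the sources used here. The platform annotation names 1 gene for 19460 of 33297 clusters and several for 1754, and it does not list 12083. The 25% of genes with the lowest mean were left out, which left 13813, and all 32 mitosis genes passed.

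Tests used limma 3.58.1 in R 4.3.3 (lmFit, eBayes), with Benjamini-Hochberg adjustment over all genes at 0.05. The main fit was tested on simulated data with independent noise and the same R1881 response in all LNCaP sets. That simulation does not cover a response that differs between sets, as seen here for set 3. One fit of 18 arrays held the array set and, for each line, R1881, siCTBP1-AS and siPSF, with 8 residual degrees of freedom. Each difference is then the mean of differences within sets, and its spread is pooled over lines and sets. Product terms were tested in a second fit, and LNCaP siControl arrays 3 against 3 on their own. Replicate numbers pair those arrays, since equal numbers share a set, as inferred from the array names. Their deviations correlated at 0.792, 0.841 and 0.715, against -0.625 to -0.126 for unequal numbers. Deviations were taken from the mean of each treatment, which ties negative values for unequal numbers to positive ones for equal numbers. The unequal numbers are thus no separate support for the pairing.

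Alternatives were other filters, scalings, cluster rules and model terms, and leaving out arrays and sets. An R1881 term for each set was added after the data were seen. The mitosis genes and the other lists were chosen with earlier results of these data known. Values in every array are given for 10 named genes, and in each comparison for up to 8 genes past the threshold and the 2 extremes. Other lists are given as counts with their 2 largest calls. Promoters came from RefSeq windows on GRCh38.p14.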

Additional observations from a re-analysis of the deposited data

Results flagged for a closer look

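R1881 lowered 4 mitosis genes more in VCaP than in LNCaP by the test of the line difference itself, where 7.54% of all genes differed and 4.31% were lower. These were MAD2L1 at -0.99, NCAPG at -0.94, TTK at -0.93 and HMMR at -0.77 (log2, limma adjusted p = 0.0346, 0.0335, 0.0186 and 0.0274). Each was lower with R1881 in 3 of 3 VCaP pairs. The count was 0 without any 1 of the 4 VCaP siControl and siCTBP1-AS arrays, 1 without set 1 or set 2 or either VCaP siPSF array, and 18 without set 3, and VCaP against set 3 alone passed for 0 of the 32.

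With siPSF 30 of the 32 genes were below siControl in both LNCaP differences and above it in both VCaP differences, as were 8.91% of all genes. The line difference was tested gene by gene and passed for 0 of the 32. With siCTBP1-AS 9 genes (MKI67, TOP2A, CDC20, CENPA, CENPE, CENPF, FOXM1, KIF11 and NCAPG) were below siControl in all 4 LNCaP differences and above it in both VCaP differences, as were 2.81% of all genes. None of the 9 passed the limma test of the line difference. No group held more than 3 arrays, so single arrays were not tested as outliers.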

How the results depend on the processing

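Of 65 values, 51 were labelled as kept under every alternative other than leaving out arrays or sets in turn. These alternatives include fits on only the sets that hold the comparison, which use fewer arrays. For a single gene, kept means the same direction and side of the threshold. Counts and medians could move and still be labelled as kept. The count of genes that R1881 lowered in VCaP, 20 in the main fit, ran from 19 to 26 and was labelled so. With an R1881 term for each set, the genes called became 2 lower for R1881 in LNCaP (6.02% of all genes lower), 13 lower for its line difference (4.5%), 3 lower for siCTBP1-AS in LNCaP (3.73%), 4 lower and 4 higher for siPSF in LNCaP and VCaP (0.782% and 0.811%), and 13 higher for its line difference (0.514%). On only the sets that hold the comparison, siPSF called 23 lower in LNCaP (4.64% of all genes), 3 higher in VCaP (1.73%) and 25 higher for the line difference (1.88%), with 1, 2 and 3 residual degrees of freedom. Product terms left 1 gene for the R1881 line difference (3.13% of all genes lower), and arrays centred on their median gave 2 for the siPSF line difference (0.347% higher). The cause was not tested.

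Leaving out arrays or sets in turn gave counts of 0 to 1 for R1881 in LNCaP, 8 to 23 in VCaP and 0 to 18 for the line difference. They were 0 to 3 for siCTBP1-AS in LNCaP and 0 to 2 for its line difference, and 0 to 1, 0 to 2 and 0 to 5 for siPSF in LNCaP, VCaP and between lines. Medians ran from 0.14 to 0.35 for siCTBP1-AS in VCaP, -0.84 to -0.25 for siPSF in LNCaP and 0.0949 to 0.35 for siPSF against siCTBP1-AS. The R1881 medians in LNCaP changed sign, from -0.24 to 0.0719 over the 6 pairs and from -0.27 to 0.13 over the siControl arrays. Of the named genes these changed sign: KIF20A (R1881 in LNCaP, -0.0885 to 0.26), PLK1 (R1881 line difference, -0.22 to 0.0825), UBE2C (siPSF in LNCaP, -0.25 to 0.10) and HMMR (siPSF line difference, -0.0143 to 0.52). Without an array of set 3, the values for siPSF in LNCaP and between lines drew on the R1881 term shared with sets 1 and 2. The matched siPSF differences of UBE2C in set 3 were -0.08 in vehicle and -0.08 in R1881.

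For the paired siControl arrays of LNCaP the replicate block moved the count of all genes called from 35 to 734 and left 0 mitosis genes called in each fit, with a median of -0.11 in both.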
